A study of Mus musculus with 18 samples.

Results

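The genes of the mitochondrial ribosome and of mitochondrial protein import were followed in mRNA level and translation in 3 tissues of the mouse embryo at E11.5, in the middle of gestation. Their members were the genes with symbols beginning Mrpl, Mrps, Timm or Tomm that a lookup of UCSC identifiers and symbols, taken from 2 tables of the study, paired with a row of the deposited tables. There were 49 members among 12241 genes of either table, namely 22 Mrpl, 14 Mrps, 7 Timm and 6 Tomm genes. The lookup gave a symbol to 3379 genes (27.6%), and other genes with these prefixes were not analysed here. Each of the 2 tables was held in part, as its first 1997 and 1998 entries, and is called a list here. Both begin with the genes that the study had called by TE (translational efficiency, defined below) and go on, over uncalled genes, from the lowest TE in the mesoderm or from the TE most in favour of NT. The members were thus chosen by TE in these same samples. A gene absent from a list was neither called nor near the low end of that order. Of the members, 41 entered through a list on NT and FL alone, 5 through a list on the mesoderm alone (Mrpl50, Mrpl51, Mrps18c, Timm9 and Tomm40l), and 3 through both (Mrpl34, Mrpl40 and Mrpl43). The 44 members of the NT and FL list were chosen without the mesoderm, and the 8 members of the mesoderm list without NT and FL, whereas the 41 and the 5 are each also restricted by absence from the other list. Values in the tissues that a list used are given as a description.

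The mitochondrial ribosome translates the few proteins encoded in the mitochondrial genome, most of them subunits of the respiratory chain. Mrpl genes encode proteins of its large subunit and Mrps genes those of its small subunit, apart from Mrps36, described below. All of these proteins are encoded in the nucleus, made on cytosolic ribosomes and imported into the organelle. Most Tomm genes encode parts of the translocase of the outer membrane, through which nearly all imported proteins enter. Timm genes encode the translocases of the inner membrane and the small chaperones that carry hydrophobic proteins across the intermembrane space. Ribosome footprints on these mRNAs therefore come from cytosolic ribosomes, and the lysates had been cleared of mitochondria by centrifugation before digestion.

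Mesoderm cells carried R26-mTmGflox/+; Tg(T-cre)1LWD/J/+, a reporter in which T-Cre turns on GFP in descendants of the primitive streak, and were sorted as GFP+ cells. Forelimb buds (FL) and neural tubes (NT) came from FVB embryos by microdissection. Each tissue gave 3 replicates of RNA-Seq and 3 of Ribo-Seq, which sequences the ribosome protected fragments (RPFs, or footprints), for 18 libraries in all. Embryos and cells were handled in cycloheximide, which the study gives as a plausible cause of excess footprints at the start of coding sequences. TE was the log2 ratio of normalized footprints to normalized RNA-Seq reads on the coding sequence (CDS), after adding 1 to each. It was taken relative to the median gene of the same tissue or replicate pair. A pair joins the RNA-Seq and Ribo-Seq libraries of equal replicate number, a pairing that correlations between libraries did not show for NT and FL.

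Depth ranged from 38054003 to 50136443 reads in mesoderm RNA-Seq, from 11000015 to 16802829 in mesoderm Ribo-Seq, from 24555103 to 33061460 in NT and FL RNA-Seq and from 12967893 to 31993255 in NT and FL Ribo-Seq. Of the marker lists, only 3 NT markers (Nes, Dcx, Nefm), 3 FL markers (Msx1, Hoxd11, Hoxd13), 2 mesoderm markers (Tcf15, Myf5), 2 blood markers (Hba-x, Csf1r) and 2 epidermal markers (Epcam, Wnt3) had a row through the lookup, and no endothelial marker did. Summed RNA-Seq reads of the NT markers were 24624 to 43152 in NT and 4834 to 5714 in FL, and those of the FL markers were 13223 to 17102 in FL and 1026 to 1489 in NT. The mesoderm lay between, at 7197 to 9542 for the NT markers and 5312 to 8300 for the FL markers. Summed blood markers, mostly the embryonic globin Hba-x, were present in every library, at 2947 to 13331 in the mesoderm, 11306 to 19587 in NT and 13488 to 23831 in FL. NT replicate 1 held 659 reads of the epithelial marker Epcam against 96.0 and 107 in the other NT libraries, 436 reads of the mesoderm marker Tcf15 against 125 and 53.0, and 2675 reads of the neuronal marker Dcx against 7953 and 6797. This library also had the lowest median TE of the members, given below, and the part of other cells in the values was not tested. In bulk samples, fewer cells of a type and less RNA per cell cannot be told apart.

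FL replicate 3 stood apart from FL replicates 1 and 2. Among all genes, the range from the 5th to the 95th percentile of TE was -2.93 to 2.10 and -2.82 to 2.06 in FL replicates 1 and 2, but -1.61 to 1.10 in FL replicate 3. The 100 most abundant genes held 22.3% and 22.6% of normalized footprints in FL replicates 1 and 2 and 17.5% in replicate 3. NT replicate 3, with a range of -2.10 to 1.45 and a share of 17.3%, was in turn the widest of the NT pairs. Results that compare NT with FL are given with and without these libraries.

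Median TE of the 49 members was lowest in NT replicate 1 and highest in FL replicates 1 and 2, with the mesoderm pairs between them. Across NT replicates 1 to 3 it was 0.04, 0.57 and 0.91 on the log2 scale. Across the mesoderm replicates it was 0.78, 1.54 and 0.97. Across the FL replicates it was 2.14, 2.23 and 0.93, so that FL replicate 3 lay within the range of the mesoderm and next to NT replicate 3. Expressed as a percentile of all genes of the same pair, the member median stood at 51.8, 80.1 and 84.1 in NT, at 82.8, 93.6 and 86.9 in the mesoderm and at 95.5, 97.0 and 91.1 in FL. On the percentile scale, which is not affected by the width of each pair's distribution, FL replicate 3 lay above all 3 NT pairs. These 9 values include NT and FL values that chose the members and carry no test.

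**Figure D1:**
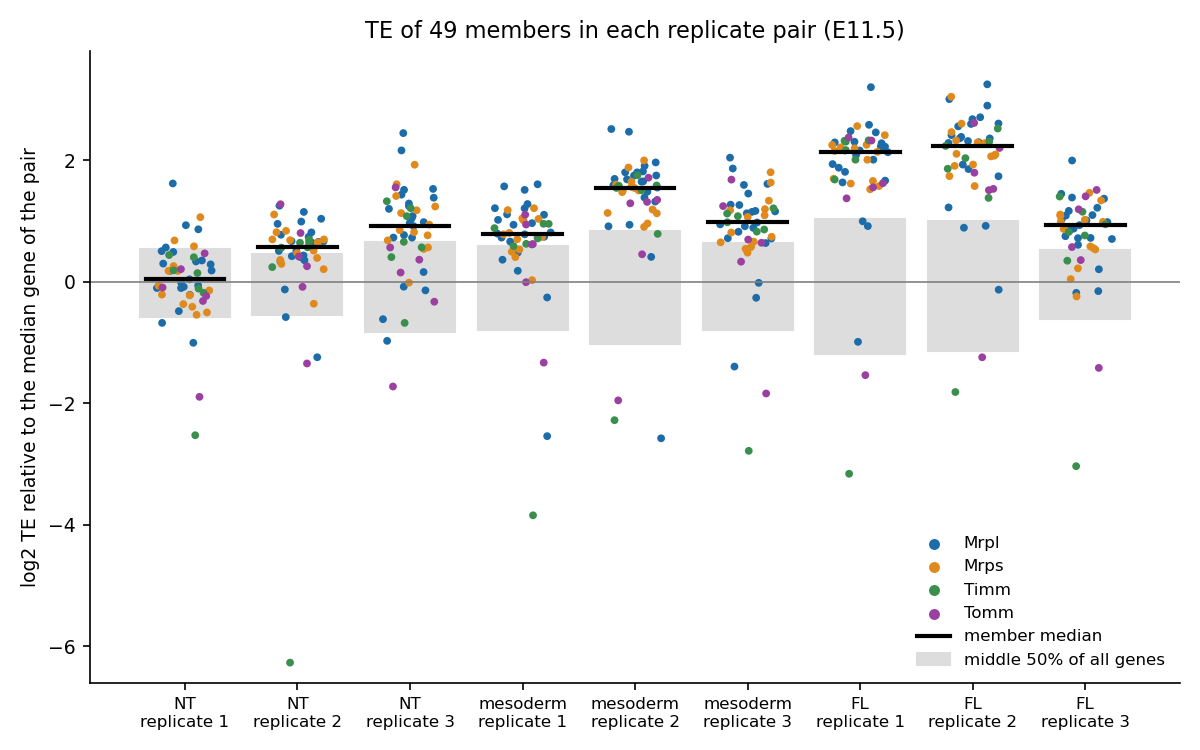
Log2 TE of the 49 members, relative to the median gene of each pair (y axis), in each of 9 replicate pairs (x axis); points are members coloured by prefix, black bars are member medians, and grey boxes span the middle 50% of all genes. Member medians run from 0.04 in NT replicate 1 to 2.23 in FL replicate 2, FL replicate 3 (0.93) lies beside NT replicate 3 (0.91), and Timm9, Mrpl51 and Tomm40l lie below the rest in every pair but FL replicate 3, where Mrps15 lies below Mrpl51.

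The mesoderm libraries were not used to find the 44 members of the NT and FL list, which allows a test of the TE of each. All 44 entered with higher TE in FL, however, and the GFP+ mesoderm includes limb mesoderm. All genes are therefore not a matched reference for the counts below. Other genes with higher TE in FL were not compared. Relative to the median gene, 41 of the 44 had higher TE at an adjusted p under 0.05 (limma, Benjamini-Hochberg over 12064 genes), against 32.0% of all genes, and none had lower TE, against 34.2% of all genes. Their median log2 TE was 1.15, with a range from -0.04 (Mrpl18) to 2.00 (Mrpl34). In 29 of the 44 the TE lay at least 2-fold above the median gene, against 13.1% of all genes that did so at an adjusted p under 0.05. The 3 that did not pass were Mrpl24 (log2 TE 0.35 ± 0.20 SE, adjusted p = 0.14), Tomm22 (0.25 ± 0.17, adjusted p = 0.22) and Mrpl18 (-0.04 ± 0.19, adjusted p = 0.86). Of these, Tomm22 is the central receptor of the outer membrane translocase.

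Of the 44, 2 were TE-high, a class that needs 3-fold or more above the median gene besides an adjusted p under 0.05 and that held 1.17% of all genes, and none was TE-low, which held 10.9%. edgeR and DESeq2 on whole reads gave 41 above the median gene and 2 TE-high as well. Among all genes they gave 3862 and 3834 above the median gene, and 146 TE-high each. Leaving out replicate 1, 2 or 3 gave 7, 1 and 3 TE-high members, beside 271, 72 and 191 of all genes. The block for replicate mattered to the count: without it, 29 of the 44 passed, beside 2036 of 12064 genes overall. Among the 41 members absent from the mesoderm list, 38 were above the median gene, with a median of 1.14, none was below and none was TE-high, counts that absence from that list fixes in part.

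Both ribosomal subunits and both import groups were represented among the genes above the median. Of the Mrps members of the NT and FL list, 13 of 13 passed, with a median log2 TE of 1.08. For the Mrpl members it was 18 of 20, with a median of 1.23. All 6 Timm members passed, with a median of 1.13, and 4 of the 5 Tomm members, with a median of 0.88. Over all genes 32.0% passed, which is not a matched reference, as given above. These counts are with the block for replicate, without which 29 of the 44 passed. Differences between the 4 groups were not tested.

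**Figure D2:**
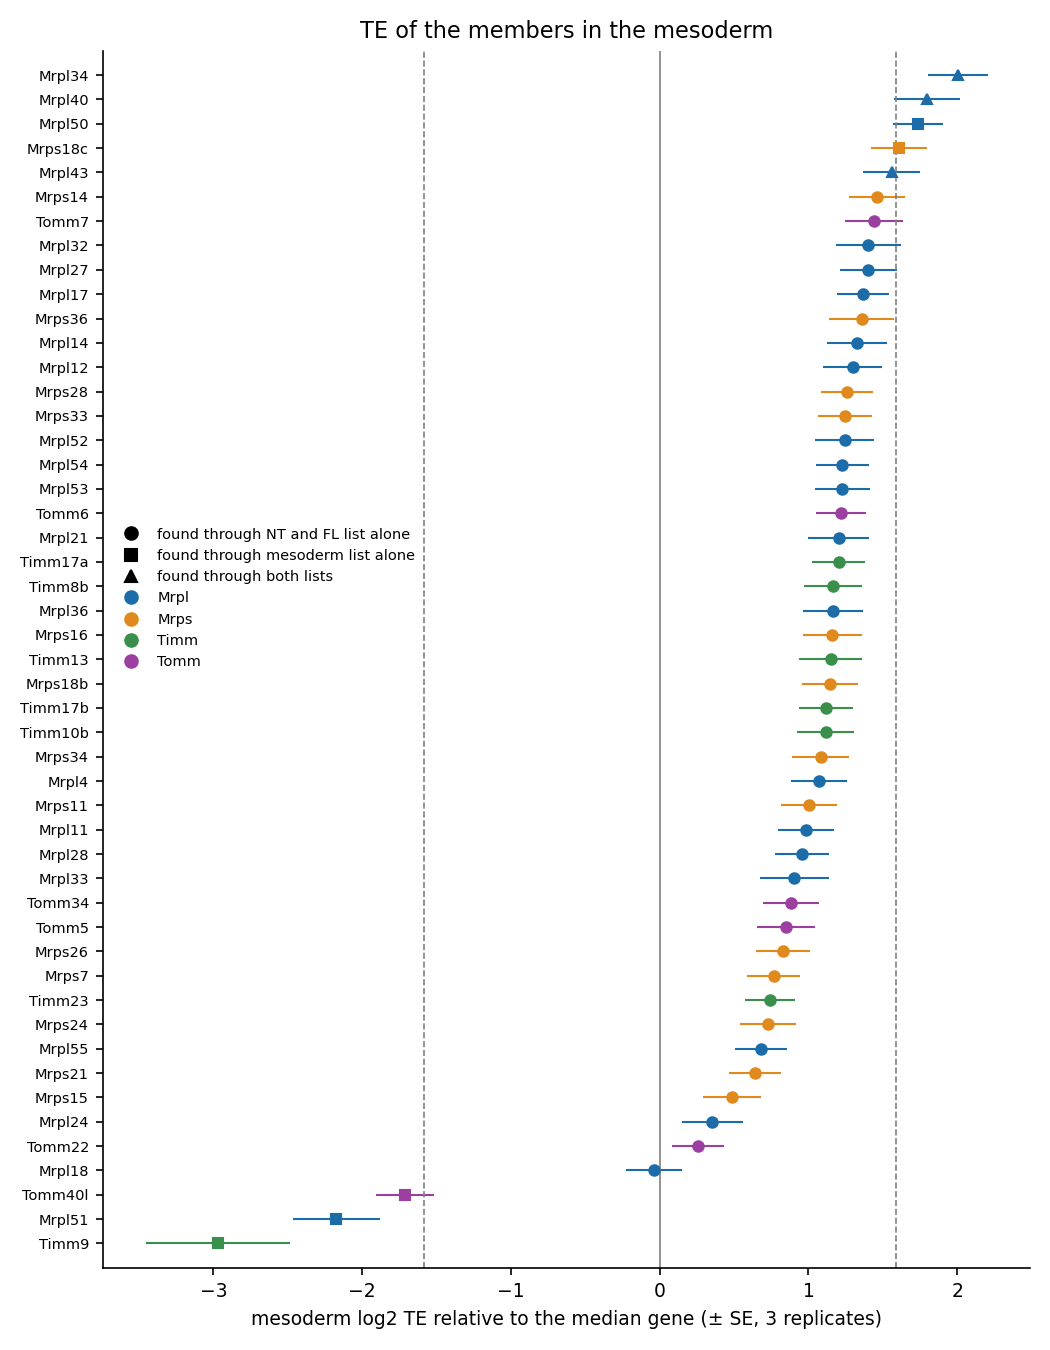
Mesoderm log2 TE relative to the median gene (x axis, with SE from 3 replicates) for each of the 49 members (y axis), coloured by prefix, with the marker shape giving the list through which the member was found; dashed lines mark 3-fold above and below the median. Between Mrpl34 (2.00) and Mrpl18 (-0.04) the members form a continuous series, and Tomm40l, Mrpl51 and Timm9 lie apart at -1.71, -2.17 and -2.97.

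The 3 members with the highest TE in the mesoderm encode large-subunit proteins, all found through the mesoderm list and given as a description. Mrpl34 had 524, 1008 and 830.2 normalized RNA-Seq reads and 1554, 5601 and 3505 footprints in mesoderm replicates 1 to 3, the highest TE of all members (log2 TE 2.00 ± 0.20, or 4.01-fold above the median gene). Mrpl40 had 454, 547 and 388 RNA-Seq reads and 1147, 3136 and 1215 footprints (1.80 ± 0.22). Mrpl50 had 642, 374 and 369 RNA-Seq reads and 2030.3, 1263 and 1378 footprints (1.74 ± 0.17). In all 3 genes every footprint value exceeded every RNA-Seq value. Also high was Mrpl43 with 548, 1143 and 912 RNA-Seq reads and 1694, 4472 and 2084 footprints (1.56 ± 0.19), and the small-subunit gene Mrps18c with 737, 517 and 370.0 RNA-Seq reads and 1773, 2074 and 1177 footprints (1.61 ± 0.19). Replicate 2 carried the most footprints of Mrpl34, Mrpl40 and Mrpl43, and replicate 1 those of Mrpl50. At the upper edge of the mesoderm list, Mrps18c and Mrpl43 inside it had log2 TE of 1.61 and 1.56, and Mrps14 and Tomm7 just outside it 1.46 and 1.44.

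Among members free to be tested in the mesoderm, Mrps14 led the small-subunit genes and Tomm7 the import genes. Mrps14 had 792, 721 and 724 RNA-Seq reads and 1863, 2664 and 1869.8 footprints, with a log2 TE of 1.46 ± 0.19 (adjusted p = 7.4e-05). Tomm7, a small subunit of the outer membrane translocase, had 1049.9, 1441 and 1207 RNA-Seq reads and 2096, 4738 and 3963 footprints, with a log2 TE of 1.44 ± 0.20 (adjusted p = 1.1e-04). The footprints of both exceeded their RNA-Seq reads in each of the 3 replicates. Tomm6, another small subunit of the same complex, had 1171, 2291 and 2077 RNA-Seq reads and 2616, 5713 and 5040.3 footprints (1.22 ± 0.17, adjusted p = 1.2e-04). Tomm5, the third of these small subunits, had far fewer of both, with 198, 273 and 264 RNA-Seq reads and 317, 672 and 422 footprints (0.85 ± 0.20, adjusted p = 0.003).

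Among the Timm genes, Timm17a and Timm8b had the highest TE. Timm17a, a core subunit of the inner membrane translocase for matrix proteins, had 816, 999 and 722 RNA-Seq reads and 1642, 2925 and 1610.1 footprints (1.20 ± 0.18, adjusted p = 1.9e-04), and its paralogue Timm17b had 913, 1769.6 and 1547 RNA-Seq reads and 1750.2, 5041 and 3123 footprints (1.12 ± 0.18, adjusted p = 3.5e-04). Timm8b and Timm13 encode small chaperones of the intermembrane space. Timm8b had 798, 838 and 650.2 RNA-Seq reads and 1360.0, 2525 and 1540.1 footprints (1.16 ± 0.19, adjusted p = 3.9e-04), and Timm13 had 1033, 1288 and 983 RNA-Seq reads and 1655, 4356 and 2129 footprints (1.15 ± 0.21, adjusted p = 7.6e-04). The TE of Timm17a and Timm17b differed by less than the SE of either, while Timm17b had the larger number of footprints in each replicate. Timm23, which pairs with the Timm17 proteins in the same translocase, had a log2 TE of 0.74 ± 0.17 (adjusted p = 0.0028), the lowest of the Timm genes that passed.

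Toward the lower end of the members that passed were Mrps15 and Mrps21, both of the small subunit. Mrps15 had 1544, 1305 and 1160.0 RNA-Seq reads and 1634, 2448 and 1729.8 footprints, and its log2 TE of 0.49 ± 0.20 passed narrowly (adjusted p = 0.046). Mrps21 had 676, 698 and 579 RNA-Seq reads and 989, 1361 and 827 footprints (0.64 ± 0.18, adjusted p = 0.0081). Mrpl52 and Mrps34 lay in the bulk of the members. Mrpl52 had 1242, 1405 and 1205 RNA-Seq reads and 2218, 4557 and 2974 footprints (1.24 ± 0.20, adjusted p = 2.9e-04), and Mrps34 had 645, 1224 and 1260.2 RNA-Seq reads and 1351, 3481 and 2157 footprints (1.08 ± 0.19, adjusted p = 5.2e-04). Mrpl54 and Mrpl32 had mesoderm log2 TE of 1.23 ± 0.18 and 1.40 ± 0.22. The footprints behind them were 1719, 3222 and 1965 for Mrpl54, over 816, 1096 and 878 RNA-Seq reads, and 371, 573 and 454 for Mrpl32, over 203, 161 and 146 RNA-Seq reads.

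In the mesoderm, Tomm40l, Mrpl51 and Timm9 were the only members with fewer normalized footprints than normalized RNA-Seq reads in all 3 replicates. All 3 entered through the mesoderm list, so their low mesoderm TE is a description. Tomm40l is a paralogue of Tomm40, the channel of the outer membrane translocase. It had 492, 843 and 689 RNA-Seq reads and 203, 218 and 196 footprints in the mesoderm, and a log2 TE of -1.71 ± 0.19. Mrpl51, of the large subunit, had 88, 227 and 239 RNA-Seq reads and 14.9, 37.3 and 92.6 footprints (-2.17 ± 0.29). Timm9, a small chaperone that forms a complex with Timm10, had 33.4, 33.9 and 81.6 RNA-Seq reads and 1.49, 6.22 and 11.3 footprints (-2.97 ± 0.48), the lowest TE of all members. The Timm9 footprints stood for 1, 3 and 5 whole reads, so that its TE rests on very few reads, whereas Tomm40l had 136, 105 and 87.

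In NT and FL, which the mesoderm list did not use, the fitted TE of these 3 genes was again the lowest of all members. Tomm40l had 672, 459 and 769 RNA-Seq reads and 179, 184 and 244 footprints in NT, and 775, 839.8 and 586 RNA-Seq reads and 266, 358 and 221 footprints in FL. Relative to the median gene of each pair its log2 TE was -1.89, -1.35 and -1.73 in NT and -1.54, -1.24 and -1.42 in FL. All 6 pairs were below the median gene, between -1.89 and -1.24. Mrpl51 had 66.6, 52.3 and 47 RNA-Seq reads and 32.5, 22 and 24.6 footprints in NT (log2 TE -1.01, -1.24 and -0.97) and 113, 87.8 and 102 RNA-Seq reads and 56.1, 81 and 91.1 footprints in FL (-0.99, -0.13 and -0.18). Timm9 had 46.6, 74.5 and 62.4 RNA-Seq reads and 7.23, 0 and 40.6 footprints in NT (-2.53, -6.27 and -0.68) and 94, 76.6 and 55.6 RNA-Seq reads and 9.62, 21.3 and 5.97 footprints in FL (-3.16, -1.82 and -3.04). The footprints of Timm9 stood for 10, 0 and 28 whole reads in NT and 6, 10 and 4 in FL, and the value of -6.27 in NT replicate 2 is set by a count of 0 and the added 1.

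**Figure D3:**
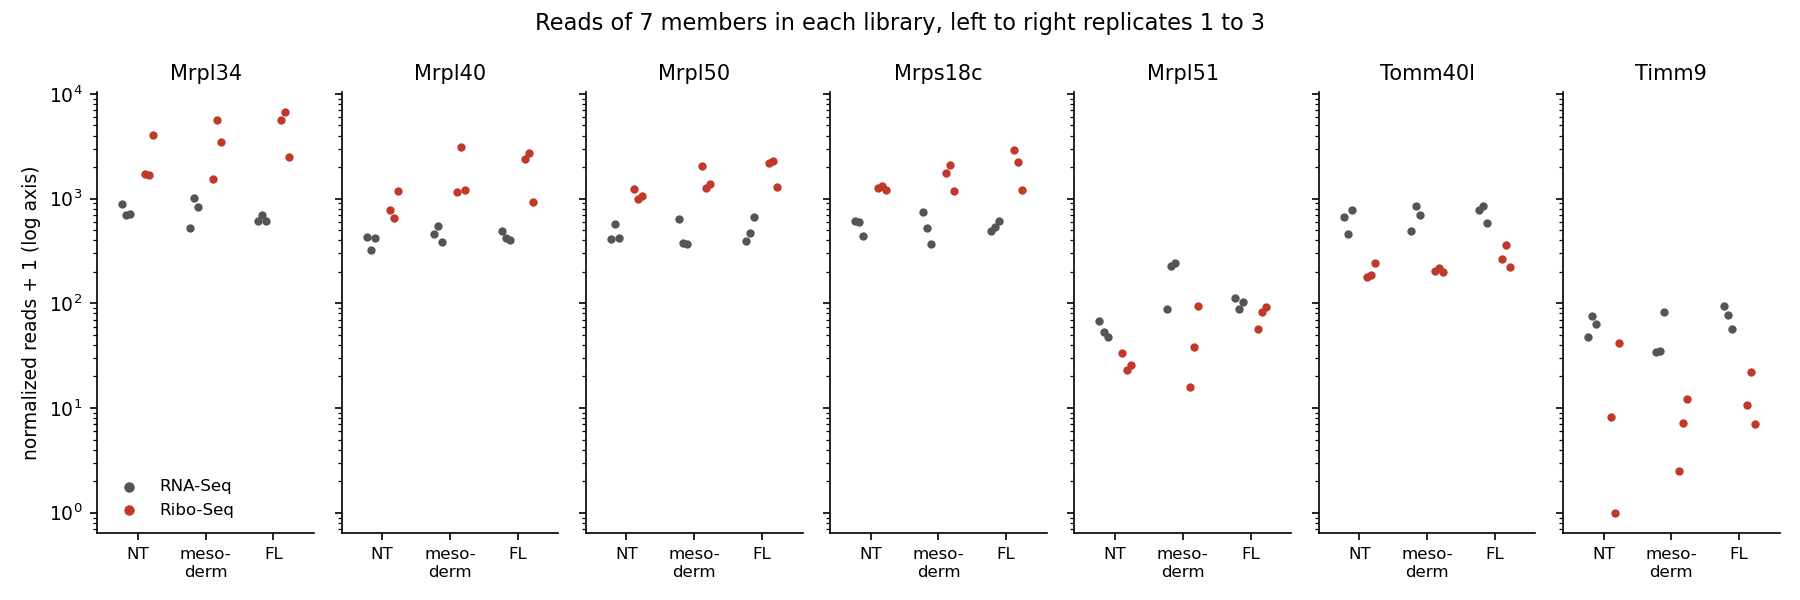
Normalized reads plus 1 on a log axis (y axis) of 7 members in NT, mesoderm and FL (x axis), with RNA-Seq in grey, Ribo-Seq in red and replicates 1 to 3 from left to right. Footprints lie above RNA-Seq reads in Mrpl34, Mrpl40, Mrpl50 and Mrps18c in every tissue and below them in Tomm40l, and Timm9 has no footprint in NT replicate 2.

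The start codon and its surroundings are shown for the members at both ends, since initiation at the start codon is a step of translation that TE reflects. Each line gives 30 bases of 1 GENCODE M21 transcript per gene on GRCm38 (mm10), 12 of the 5′ untranslated region (UTR), the start codon and 15 more of the coding sequence, all within 1 exon, with the start codon in capitals.
Mrpl34 (chr8:71464991-71465020, + strand): ccgccgctggatATGgctttcctagcccgg
Mrpl40 (chr16:18876506-18876535, - strand): gcgtgaaaaactATGgctaccggggtgatg
Mrpl43 (chr19:45006377-45006406, - strand): ctaaccgtagccATGaccggtcgcgggact
Mrpl50 (chr4:49521036-49521065, - strand): tgcttgtcgagaATGgcggcgctgatcgtg
Mrps18c (chr5:100798758-100798787, + strand): gggcggagaaccATGgccgctctggttgct
Tomm40l (chr1:171222001-171222030, - strand): ctctggattaaaATGgggaacaccctgggc
Mrpl51 (chr6:125192343-125192372, + strand): caggctagagtaATGgcagggagtgtccct
Timm9 (chr12:71126354-71126383, - strand): tactgaaagaatATGgctgcacagataccg

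All 8 windows but that of Mrpl43 have a G directly after the start codon, as do 35 of the 49 members (71.4%) and 49.1% of the 21497 coding genes of the annotation. A purine 3 bases before it is found in 47 of 49 members (95.9%) and in 78.0% of coding genes. The letters ATGGCGGC at the start codon, read on the coding strand, are found in 6 of 49 members (12.2%), Mrpl50 among them, and in 2.23% of coding genes. Tomm40l, Mrpl51 and Timm9 each have the purine and the G, and none of them has ATGGCGGC. Whether these letters bear on TE was not tested. The coding genes here are all those of the annotation, not only those with a row in the deposited tables.

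Members had short coding sequences, whereas their 5′ UTRs differed less from those of coding genes, and neither difference was tested. Their CDS ranged from 156 bases (Tomm5) to 930 bases (Tomm34), with a median of 480 against 1179 bases over coding genes. The median 5′ UTR was 117 bases long against 136, and an upstream ATG was present in 17 of 49 members (34.7%) against 46.4% of coding genes. Of the 3 members with low TE, Tomm40l has a 5′ UTR of 275 bases with 9 upstream ATGs, the most of any member. Mrpl51 has 190 bases with 2, and Timm9 145 bases with 0. The highest TE belongs to Mrpl34, with 44 bases and 0, but Mrpl40 has 339 bases and 1. These lengths are of GENCODE transcripts and may differ from the UCSC isoforms on which reads were counted.

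Part of the coding sequence of many members is shared with other annotated transcripts, which bears on reads that were kept only when uniquely mapped. Over the counted CDS, 30 of 49 members have at least 1 stretch of 30 bases that also occurs, on either strand, in a transcript of another gene. The share was 66.1% for Mrpl51, all with Gm14017, and 48.6% for Tomm40l, all with Nr1i3, while Timm9 shared none. It was 100% for Mrpl53, Mrps36, Timm10b, Timm23 and Tomm6, 88.1% for Tomm5, 87.1% for Mrps33, 71.4% for Mrpl43 and 69.7% for Mrpl33, and the levels of all these genes are therefore uncertain. Members with a share of 100% still held uniquely mapped footprints. In mesoderm replicates 1 to 3 these were 2282, 1849 and 1449 whole reads for Timm23 and 283, 234 and 178 for Mrps36. Sharing thus did not remove all reads, and the part that it removed was not tested. Whether the transcripts that share these stretches were in the set that the authors aligned to is not given in the sources used here.

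Per kilobase of counted CDS, genes of the ribosomal proteins differed widely in mRNA level. Across the 36 Mrpl and Mrps genes, mesoderm RNA-Seq reads per kilobase ranged 12.4-fold, from 338 (Mrpl32) to 4196 (Mrpl52), with a median of 2035. Footprints per kilobase ranged 109.9-fold, from 148 (Mrpl51) to 16224 (Mrpl34), with a median of 4768. Without Mrpl51 the footprints ranged 17.6-fold, and the SD of log2 reads per kilobase was 0.77 for RNA-Seq and 0.81 for footprints. In NT these SDs were 0.73 and 0.81, and in FL 0.80 and 0.83. Footprint density was thus spread at least as widely as mRNA density among the 35 genes, a description over genes that are not replicates.

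Tomm7 had 11412 ± 1822 RNA-Seq reads per kilobase (mean ± SD, n = 3) in the mesoderm, 10221 ± 2993 in NT and 9703 ± 1417 in FL, the highest of all members in each tissue. Its footprints per kilobase were 33324 ± 12576, 17242 ± 1458 and 40654 ± 14580.4 in the same tissues. Timm13 led the Timm genes with 4916 ± 1072 RNA-Seq reads per kilobase in NT and 4125 ± 773 in FL. Mrpl52 led the large-subunit genes with 3569 ± 701 and 3323 ± 366, and Mrps21 the small-subunit genes with 3128 ± 254 and 2626 ± 767. The NT and FL means of each of these 4 genes lay within 2 SDs of each other.

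Next, FL was compared with NT. For the 44 members of the NT and FL list, all values in this comparison chose the members and are a description. Their TE was higher in FL than in NT for 44 of 44, with a median difference of 1.12 (2.18-fold) beside 0.01 over all genes, which was not subtracted, and a range from 0.94 (Mrpl40) to 1.67 (Tomm5). Just outside that list, Mrpl50 and Mrps18c had differences of 0.67 and 0.66. None of the 44 was called by limma at an adjusted p under 0.2 and 2-fold, beside 0.125% of all genes called higher in FL and 0.276% called higher in NT. All 3 FL pairs lay above all 3 NT pairs in 15 of the 44, beside 10.5% of all genes, and below them in none, beside 6.79%. Nothing is read from these counts, since the same difference had chosen the genes, nor from the 44 and 33 that limma called without FL or NT replicate 3.

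By the same choice of genes, the difference lay in footprints more than in RNA-Seq reads. RNA-Seq reads of the 44 members were lower in FL for 26 and higher for 18, with a median log2 difference of -0.09, from -0.56 (Mrps36) to 0.26 (Mrps16). Their footprints were higher in FL for 44 of 44, with a median of 1.11 (2.16-fold), from 0.61 (Mrps36) to 1.52 (Tomm6). Over all genes the medians were 0.02 for RNA-Seq and 0.04 for footprints. Mrps36, first described with the small subunit and since counted with the alpha-ketoglutarate dehydrogenase complex, had both the lowest RNA-Seq and the lowest footprint difference among the 44.

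**Figure D4:**
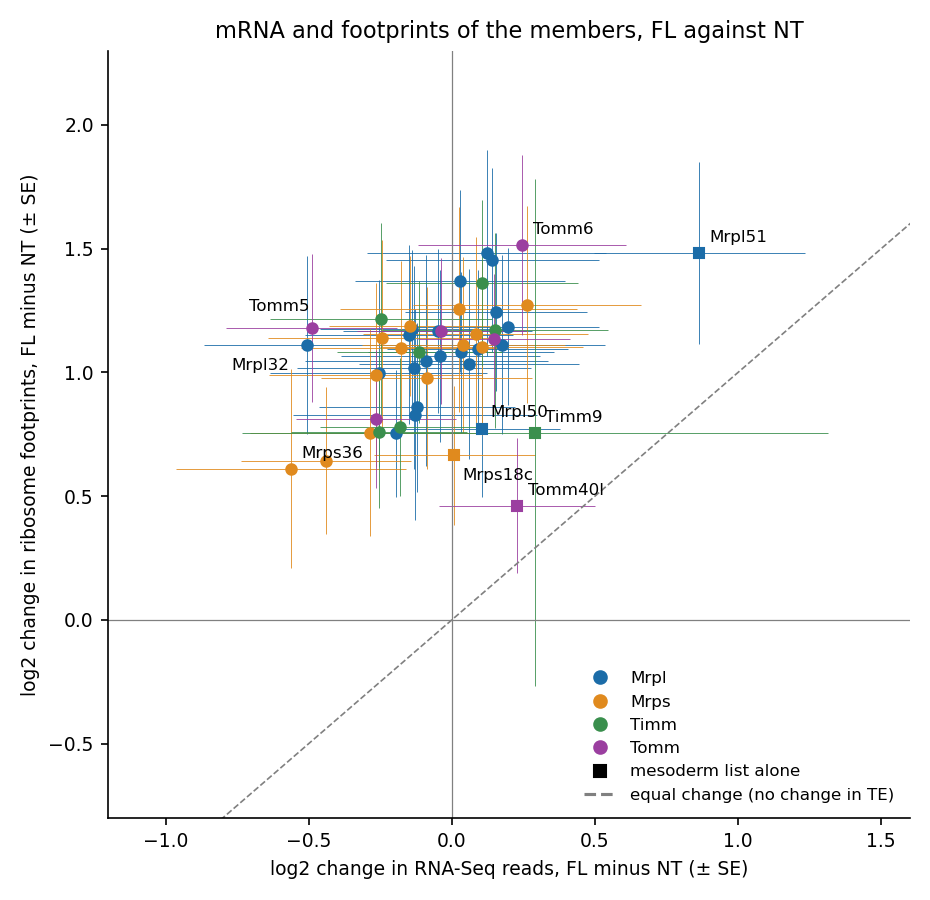
FL minus NT difference in footprints (y axis) against that in RNA-Seq reads (x axis), both log2 with SE from 3 replicates per tissue, for the 49 members; squares are the 5 members of the mesoderm list alone and the dashed line marks equal differences. RNA-Seq differences of the 44 other members lie between -0.56 and 0.26 and footprint differences between 0.61 and 1.52, and all 49 points lie above the dashed line.

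Large-subunit members with the largest difference in TE were Mrpl32 and Mrpl54. Mrpl32, which is matured by a protease inside mitochondria before it joins the ribosome, had 279.9, 135 and 267 RNA-Seq reads and 343, 307 and 313 footprints in NT, and 196, 113 and 159 RNA-Seq reads and 859, 921 and 421 footprints in FL. Its NT and FL footprints did not overlap, FL replicate 3 being closest to NT. Mrpl54 had 606, 532 and 704 RNA-Seq reads and 561, 694 and 1393 footprints in NT, and 843, 574 and 604 RNA-Seq reads and 3095, 3515 and 1091 footprints in FL. Here the footprints of FL replicate 3 fell below those of NT replicate 3. Mrpl34 had 896, 697 and 713 RNA-Seq reads and 1700.1, 1695 and 4082 footprints in NT, and 609.7, 697 and 616 RNA-Seq reads and 5609, 6705 and 2481 footprints in FL. Mrpl40 had 428, 319 and 420.1 RNA-Seq reads and 775, 646 and 1192 footprints in NT, and 489, 415 and 405 RNA-Seq reads and 2399, 2745 and 918 footprints in FL. Mrpl43 had 923, 588 and 605 RNA-Seq reads and 1119.7, 1230.3 and 2843 footprints in NT, and 735, 586 and 582 RNA-Seq reads and 3629, 4423 and 1368 footprints in FL. In each of these 3 genes the footprints of FL replicates 1 and 2 exceeded every NT value, and those of FL replicate 3 lay above NT replicates 1 and 2 but below NT replicate 3. Mrpl52, with the most large-subunit mRNA per kilobase, had 1145, 856 and 1275 RNA-Seq reads and 1436, 1241 and 2829.6 footprints in NT, and 1145, 941 and 964 RNA-Seq reads and 4860.1, 5789 and 1586 footprints in FL, with the same overlap at replicate 3.

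Among the small-subunit members Mrps34 and Mrps14 had the largest differences in TE. Mrps34 had 1004, 661 and 909.9 RNA-Seq reads and 904, 935 and 2158 footprints in NT, and 698, 681 and 764 RNA-Seq reads and 3324, 4182 and 1409 footprints in FL. Mrps14 had 772, 818 and 842 RNA-Seq reads and 1231, 1190.5 and 1696 footprints in NT, and 748, 796 and 657 RNA-Seq reads and 3977, 4035 and 1832 footprints in FL. Footprints of the tissues overlapped at replicate 3 for Mrps34 but not for Mrps14, whose 3 FL values all lay above its 3 NT values. Mrps15 had 866, 862 and 901 RNA-Seq reads and 606, 684 and 1374 footprints in NT, and 812, 937 and 1051 RNA-Seq reads and 2485, 2824 and 897 footprints in FL, again with FL replicate 3 below NT replicate 3. Mrps21, with the most small-subunit mRNA per kilobase, had 619.7, 598 and 696 RNA-Seq reads and 589.8, 782 and 723 footprints in NT, and 715, 424 and 469 RNA-Seq reads and 2051, 1609 and 488 footprints in FL, where replicate 3 was the lowest of all 6 values.

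Among the Timm genes Timm13 and Timm17b had the largest differences in TE. Timm13 had 1205, 846 and 1312 RNA-Seq reads and 1109, 1273 and 2172 footprints in NT, and 1074, 1006 and 741 RNA-Seq reads and 4815, 4789 and 1663 footprints in FL. Timm17b had 956, 793 and 986 RNA-Seq reads and 1289.5, 1272 and 2593 footprints in NT, and 1009.7, 1023 and 902 RNA-Seq reads and 5062, 5940.2 and 2409.7 footprints in FL. For both genes only FL replicate 3 fell below NT replicate 3. Timm17a had 1235, 773 and 1028 RNA-Seq reads and 1357, 1230.3 and 1597 footprints in NT, and 787, 976 and 1010.0 RNA-Seq reads and 3927, 3581 and 1801 footprints in FL, without overlap. Timm8b had 811, 753 and 730.0 RNA-Seq reads and 1067, 1138 and 1773 footprints in NT, and 617, 671 and 635 RNA-Seq reads and 3045, 2779 and 1236 footprints in FL, with overlap at replicate 3.

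The small Tomm subunits included the largest difference in TE of all members, that of Tomm5. Tomm5 had 372, 229 and 207 RNA-Seq reads and 314, 311 and 172 footprints in NT, and 193, 191 and 171 RNA-Seq reads and 596, 671 and 494 footprints in FL. All 3 FL footprint values of Tomm5 lay above all 3 NT values, and its 3 FL RNA-Seq values all lay below its 3 NT RNA-Seq values. Tomm6 had 1615, 929 and 1169 RNA-Seq reads and 1504, 1652 and 3598 footprints in NT, and 1365, 1374 and 1562 RNA-Seq reads and 6826, 8504 and 3604 footprints in FL. Tomm7 had 1265, 732 and 1315 RNA-Seq reads and 1739, 1808 and 2039.6 footprints in NT, and 936, 1222 and 986 RNA-Seq reads and 4847, 5687 and 2638 footprints in FL. Tomm7 footprints did not overlap between tissues, and those of Tomm6 did not either, by a narrow margin at replicate 3. Most of the counted CDS of Tomm5 and all of that of Tomm6 is shared with other transcripts, as given above.

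The 8 members of the mesoderm list were chosen without NT and FL, which allows a test between those tissues, with 3 of the 8 also in the NT and FL list. In TE none of the 8 was called by limma, edgeR or DESeq2. Of 11231 genes these called 14, 18 and 570 higher in FL and 31, 21 and 286 higher in NT. By limma 1 of the 8 had an unadjusted p under 0.05 (Mrpl34). In none did all 3 FL pairs lie above all 3 NT pairs, beside 10.5% of all genes, or below them, beside 6.79%. With only 8 members, nothing is read from these counts of 0. Without FL replicate 3, 5 were called higher in FL, beside 1805 of 11231 genes higher in FL and 2167 higher in NT, and without NT replicate 3, 2 were, beside 1000 and 1235 genes. NT and FL had been taken from the same embryos, and with the replicate number as a block 0 of the 8 were called, beside 1 gene of all higher in FL and 5 higher in NT in place of 14 and 31. In footprints 2 of the 8 were called higher in FL, Mrpl51 and Mrpl40, beside 15.5% of all genes, and none higher in NT, beside 19.7%. In RNA-Seq reads none was called, beside 8.71% higher in FL and 10.2% higher in NT.

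For the 5 members absent from the NT and FL list, that absence makes a call less likely. The FL minus NT differences in log2 TE were 0.67 ± 0.39 for Mrpl50 (adjusted p = 0.33), 0.66 ± 0.40 for Mrps18c (0.34), 0.62 ± 0.52 for Mrpl51 (0.46), 0.47 ± 1.45 for Timm9 (0.85) and 0.23 ± 0.39 for Tomm40l (0.71). The sign for Timm9 depends on the processing, with -0.58 by edgeR, -0.65 by DESeq2, -0.17 with a pseudocount of 8 and -1.09 without NT replicate 2. Without FL replicate 3, Mrpl50 (1.15, adjusted p = 0.017) and Mrps18c (1.10, adjusted p = 0.019) were called higher in FL, and Mrpl51, Timm9 and Tomm40l were not.

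Mrpl50 had 406, 565 and 421 RNA-Seq reads and 1240.4, 986 and 1049.5 footprints in NT, and 389, 464 and 666 RNA-Seq reads and 2171, 2287 and 1284 footprints in FL. Mrps18c had 606, 596 and 433 RNA-Seq reads and 1259.9, 1310.0 and 1210.4 footprints in NT, and 492, 532 and 609.7 RNA-Seq reads and 2902, 2249 and 1219.8 footprints in FL. FL footprints of Mrpl50 all lay above those of NT, and for Mrps18c FL replicate 3 fell within the NT values. Of Mrpl51, the footprints were higher in FL at 1.48 ± 0.37 (adjusted p = 0.0061), and they did not overlap between tissues. Its RNA-Seq reads differed by 0.86 ± 0.37 (adjusted p = 0.12), short of 2-fold.

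Set side by side, TE was ordered FL above mesoderm above NT in 47 of 49 members and in 32.8% of the 11054 genes with a row in both tables, as means of pairs from tables normalized separately and without a test. For 44 of the members FL above NT was fixed by their choice, so that 32.8% is not a matched reference. Among the 11054 genes, FL lay above NT with the mesoderm lowest in 10.3% and with the mesoderm highest in 8.45%. Timm9 is among the 47, although the sign of its FL minus NT difference depends on the processing. The exceptions to the order were Mrpl51 and Tomm40l, where the mesoderm was the lowest. The fitted TE of Mrpl51 was -2.17 in the mesoderm, -1.07 in NT and -0.43 in FL, whereas that of Tomm40l was -1.71, -1.65 and -1.39.

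Genes outside the 4 prefixes with roles in the same processes were counted from a list of 76, of which the lookup gave 19 a row. The NT and FL list held 13 of them, and in the mesoderm 7 were above the median gene at an adjusted p under 0.05, beside 32.0% of all genes, and 4 below, beside 34.2%. All 7 above had higher TE in FL, with log2 differences of 1.01 (Mpv17l2) to 1.43 (Romo1). All 4 below had higher TE in NT, from -1.265 (Gfm2) to -1.50 (Aars2). That difference had chosen these genes, so the split is not read as one between roles. Mitochondrial ribosome proteins without the prefix gave 3 above, namely Ict1 (1.47), Mrp63 (1.27) and Chchd1 (1.07), and 1 below, the pentatricopeptide protein Ptcd3 (-0.79). Of the import genes absent from the mesoderm list, 3 of 5 were above and none below, namely Grpel1 (1.47), a cochaperone of the matrix import motor, Romo1 (1.26) and Chchd4 (0.55), which oxidizes small proteins in the intermembrane space. The assembly factor Mpv17l2 was above (1.07). The translation factor Gfm2 (-1.10), the isoleucyl-tRNA synthetase Iars2 (-1.09) and the alanyl-tRNA synthetase Aars2 (-1.32) were below. Of the 6 related genes found through the mesoderm list alone, none was called between FL and NT, beside 0.125% of all genes higher in FL and 0.276% higher in NT. Absence from the NT and FL list makes a call less likely, and nothing is read from this count.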

How the data were processed

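The deposited tables hold a signal per gene and library, namely reads on the CDS of the canonical UCSC known gene isoform (mm10), without the first 15 and last 5 codons, that the authors scaled by DESeq's effective library size. Before that, the authors trimmed adapters with cutadapt, removed rRNA, tRNA and snRNA reads, aligned the rest with Bowtie2 and kept uniquely mapped reads, placing each by its A site. The tables of the mesoderm (12064 genes) and of NT and FL (11231 genes) were normalized separately, so tests were run within 1 table and only TE was set side by side. In all 18 libraries the signal was a whole multiple of 1 step to within 0.0051, the rounding of the deposited values, plus 1e-06 of the value, which gave whole reads for edgeR 4.0.16 and DESeq2 1.42.0. Every column was used.

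Main tests used limma 3.58.1 in R 4.3.3 on log2(normalized reads + 1), which understates the change of low genes, with Benjamini-Hochberg adjustment over all genes. Mesoderm TE was fitted with replicate as a block and tested against its median over genes. Replicate numbers pair the mesoderm libraries, since cells of 1 sort were split between both library types. Their deviations from the group means correlated across genes at r = 0.74, 0.58 and 0.57. For NT the same check of RNA-Seq against footprints gave r = -0.28, 0.35 and 0.05. It gave 0.05, 0.12 and 0.09 for FL. Values per NT or FL pair therefore join libraries by number alone, a pairing that these correlations do not show. FL minus NT TE was the interaction of library type and tissue over 12 libraries without a block. NT and FL were dissected from the same embryos and cells were split between library types, but whether equal replicate numbers mark the same embryos is not given in the sources used here, and the fit with a block is given beside the result. Nothing states that NT or FL replicates came from separate litters, and p-values measure only the spread between these samples. Members, gene lists, tests and alternatives were chosen with earlier results of these data known. Every member could be named, with each library's values for the members of the mesoderm list and, per prefix, the 2 highest and the lowest mesoderm TE, the 2 largest and the smallest FL minus NT difference, and the most RNA-Seq reads per kilobase in NT and FL. Fits were tested on simulated data. Counts per kilobase used CDS lengths of GENCODE M21, in which all 49 members matched by symbol. The GENCODE transcript of each gene was chosen without knowledge of the UCSC isoform counted. No protein sequence was used here. Alternatives were other pseudocounts, a filter on low values, other thresholds, edgeR, DESeq2, equal library totals, fits with and without a replicate block and each replicate left out.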

Additional observations from a re-analysis of the deposited data

Results flagged for a closer look

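Mrpl24, a protein of the large mitochondrial subunit, is set apart because its log2 TE lay below the median gene in every NT pair (-0.08, -0.13 and -0.62) and above it in every FL pair (0.99, 0.89 and 0.20), a difference of 0.97 between the means. The mesoderm pairs were 0.18, 0.91 and -0.02. Mrpl24 entered through the NT and FL list, so this difference was not tested.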

How the results depend on the processing

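Mesoderm TE of the 41 members kept its direction and its count within 1.5 times under every alternative run, apart from the number called TE-high. That number rose from 0 to 26 with a 2-fold threshold, and was 0 to 5 when 1 mesoderm replicate was left out, the 5 being without replicate 1. The median log2 TE was 0.91 to 1.24 with 1 replicate left out. Without the replicate block 26 members in place of 38 passed. For FL minus NT, the number of the 44 members called higher in FL was 25 with DESeq2, 0 to 44 with 1 replicate left out (33 without NT replicate 3, 44 without FL replicate 3) and, in an alternative chosen after seeing the data, 44 with NT and FL replicates 1 and 2 alone. That alternative called 2 of the 5 members of the mesoderm list, and leaving out 1 replicate 0 to 2, the 2 being without FL replicate 3. Equal NT and FL replicate numbers are not stated to mark the same embryos, and footprint deviations of the same number correlated at r = -0.29, -0.50 and -0.58. With a replicate block the counts of the 44 and of the 5 stayed at 0, with 1 gene of all called higher in FL in place of 14 and 5 higher in NT in place of 31. Timm9 reversed to -0.17 with a pseudocount of 8, -0.58 with edgeR, -0.65 with DESeq2 and, with 1 replicate left out, ranged from -1.09 (without NT replicate 2, where its footprint count was 0) to 1.73 (without NT replicate 3). Over all genes, TE-high counts were 141, 1582 at 2-fold and 72 to 271 with 1 replicate left out, TE-low counts 1317 and 2596 at 2-fold, and counts above the median 3866 and 2036 without the block. Counts higher in FL and in NT were 570 and 286 with DESeq2, 2 and 4 with libraries paired within each sample, 2329 and 2504 with replicates 1 and 2 alone, and 0 to 1805 and 0 to 2167 with 1 replicate left out. With equal library totals the median over genes was -0.16 in place of 0.01 for FL minus NT TE and -0.15 in place of 0.03 for mesoderm TE, and the median of the 44 was 0.96 in place of 1.12. With only genes of a mean of at least 100 normalized reads, Timm9 and Mrpl51 had no value. Depth limits Timm9, with 0 to 28 footprints a library, and Mrpl51, with 10 to 61. The cause of these shifts was not tested.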
